A study of Mus musculus with 32 samples.

Results

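The transcripts of cytochrome P450 families 1 to 4 were followed in the liver of 32 aged male mice. Members were the probe sets of the Affymetrix MG-U74Av2 array whose single gene symbol in the platform annotation belongs to Cyp1, Cyp2, Cyp3 or Cyp4, leaving out the Cyp4a subfamily, Cyp2b9 and Cyp2b13. That rule gave 29 of the 12422 probe sets that are not controls, and they stand for 25 of the 8251 genes so named, in 14 subfamilies. A further 6 probe sets of these families carry several symbols, among them the one shared by Cyp2a5 and Cyp2a4, and were not counted as members. The rule is written on gene symbols alone, but it was chosen with earlier results of these data known.

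All mice were B6C3F1 hybrids, housed singly from 5 months of age. Death came at 22 months, after 48 hours without food, with 4 mice and 4 arrays in each of 8 groups. The long-term calorie restricted group (LTCR) ate 52.2 kcal per week of an enriched restricted diet from 5 months. The short-term group (CR8) was moved to that diet at 20 months, at 77 kcal per week for 2 weeks and at 52.2 kcal per week for the next 6 weeks. For 8 weeks from 20 months, 5 groups ate the control diet with a drug or extract whose dose was not given: metformin (MET), a biguanide; glipizide (GLIP), a sulfonylurea; both of these (GM); rosiglitazone (ROS), an agonist of PPAR gamma; or a soy isoflavone extract (SOY). The control group (CON) ate 93 kcal per week of the control diet. The comparisons ask how restriction and each treatment moved the P450 transcripts of an old liver.

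Cytochromes P450 of these families are heme enzymes of the endoplasmic reticulum that oxidise drugs, pollutants, steroids and fatty acids, and they take their electrons from the reductase Por and from cytochrome b5. Hepatocytes hold most of them. Their genes are switched by ligand-activated factors, the Ah receptor for Cyp1 genes, CAR (Nr1i3) and PXR (Nr1i2) for many Cyp2b, Cyp2c and Cyp3a genes, on a base level set by liver factors such as Hnf4a and Cebpa. Many, Cyp2e1 and Cyp1a2 among them, are made mainly around the central vein of the lobule, and Cyp2f2 mainly around the portal tract.

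In RefSeq (GRCm38.p6), Cyp2c29, Cyp2c39 and Cyp2c38 are neighbouring protein-coding genes on chromosome 19, with Cyp2c70 further along it, and Cyp3a11 and Cyp3a25 are neighbours on chromosome 5. Their promoters are shown because the first 3 genes were called higher in LTCR while Cyp2c70 was not called, and because Cyp3a25 was called lower while Cyp3a11 was not called in the same comparison. Each window runs 5′ to 3′ on the gene's own strand over 300 bases, 250 before the annotated start and 50 after it. Capitals mark matches on either strand to the letters AGGTCA or AGTTCA (half-sites of nuclear receptors such as PXR, CAR and RXR), CAAAGTNCA (a form of the HNF4 element), GCGTG (the core of the Ah receptor's element) and TATAAA (the letters of the TATA box). The marks take no account of where in the window the letters stand.
Cyp2c39, window 2: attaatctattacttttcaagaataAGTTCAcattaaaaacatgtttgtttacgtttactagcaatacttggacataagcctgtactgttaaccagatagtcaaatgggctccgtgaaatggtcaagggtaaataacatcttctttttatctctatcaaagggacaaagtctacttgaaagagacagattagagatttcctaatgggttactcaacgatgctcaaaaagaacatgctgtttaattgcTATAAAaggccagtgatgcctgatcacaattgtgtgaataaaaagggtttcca
Cyp2c39, window 1: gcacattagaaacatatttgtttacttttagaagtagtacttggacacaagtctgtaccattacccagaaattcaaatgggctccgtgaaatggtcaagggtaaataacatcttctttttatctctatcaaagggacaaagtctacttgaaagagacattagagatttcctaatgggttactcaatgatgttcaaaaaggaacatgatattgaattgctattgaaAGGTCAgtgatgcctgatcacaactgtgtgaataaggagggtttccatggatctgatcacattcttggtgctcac
Cyp2c38: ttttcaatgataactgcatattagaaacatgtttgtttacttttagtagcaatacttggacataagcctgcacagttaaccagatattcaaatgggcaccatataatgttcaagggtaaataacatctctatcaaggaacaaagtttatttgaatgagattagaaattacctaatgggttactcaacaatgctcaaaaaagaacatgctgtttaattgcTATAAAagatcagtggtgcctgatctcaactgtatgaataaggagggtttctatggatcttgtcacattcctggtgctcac
Cyp2c29: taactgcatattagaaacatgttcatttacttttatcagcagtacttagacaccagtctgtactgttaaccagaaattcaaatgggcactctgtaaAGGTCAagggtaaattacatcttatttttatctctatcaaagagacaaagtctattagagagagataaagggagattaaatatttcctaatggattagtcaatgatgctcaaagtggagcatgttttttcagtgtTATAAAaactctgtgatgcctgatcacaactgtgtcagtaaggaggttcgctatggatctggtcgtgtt
Cyp2c70: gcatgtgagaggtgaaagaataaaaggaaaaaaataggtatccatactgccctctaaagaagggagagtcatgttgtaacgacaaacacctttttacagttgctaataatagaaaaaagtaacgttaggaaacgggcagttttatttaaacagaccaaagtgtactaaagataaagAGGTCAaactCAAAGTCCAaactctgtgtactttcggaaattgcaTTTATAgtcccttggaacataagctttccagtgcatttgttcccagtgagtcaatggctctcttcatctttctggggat
Cyp3a25: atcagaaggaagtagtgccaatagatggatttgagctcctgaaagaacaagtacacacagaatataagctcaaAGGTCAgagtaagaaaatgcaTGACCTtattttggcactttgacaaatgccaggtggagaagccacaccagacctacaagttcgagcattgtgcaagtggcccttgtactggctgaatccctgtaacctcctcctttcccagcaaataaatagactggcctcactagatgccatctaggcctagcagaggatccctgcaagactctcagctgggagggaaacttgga
Cyp3a11: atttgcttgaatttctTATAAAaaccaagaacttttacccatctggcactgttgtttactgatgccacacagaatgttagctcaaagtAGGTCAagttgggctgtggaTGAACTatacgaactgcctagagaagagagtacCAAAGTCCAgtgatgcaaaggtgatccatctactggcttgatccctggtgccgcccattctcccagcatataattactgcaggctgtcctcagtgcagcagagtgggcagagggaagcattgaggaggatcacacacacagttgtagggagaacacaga
On the plus strand, Cyp2c39 has 2 annotated starts, with windows at chr19:39510572-39510871 and chr19:39347096-39347395, and Cyp2c29 lies at chr19:39286835-39287134. On the minus strand lie Cyp2c38 at chr19:39463026-39463325, Cyp2c70 at chr19:40187237-40187536, Cyp3a25 at chr5:146009568-146009867 and Cyp3a11 at chr5:145879805-145880104. Cyp3a25 also has 2 starts, 1 base apart, of which 1 is shown.

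Aligned end to end, window 2 of Cyp2c39 shared 80% of its 300 bases with Cyp2c38 and 74.3% with Cyp2c29, and Cyp2c38 shared 76% with Cyp2c29. Window 1 of Cyp2c39 shared 82% with Cyp2c38 and 79% with Cyp2c29. Cyp2c70 shared 58.3% to 61.3% with the others. Cyp3a25 and Cyp3a11 shared 65%. Gaps were allowed and windows of different subfamilies were not aligned, so these shares have no background beside them. All 20 tested member genes had a window. The letters TATAAA stood in the windows of 13 of the 20 genes and in 13.6% of all 32544 distinct windows in the table, AGGTCA in 7 genes and 16.2%, AGTTCA in 4 genes and 14%, and GCGTG in 2 genes (Cyp2b10 and Cyp4v3) and 32.6%. CAAAGTNCA stood in 4 genes, Cyp2c70, Cyp2d26, Cyp3a11 and Cyp3a16, and in 1.43% of all windows. TTATGTAA, the element of Dbp and its relatives, stood in 0 of the 20 and in 0.931%. No 2 matches overlap in the windows shown. TATAAA was counted at any place in the window. Counted from the start, its first base lay at -234 in Cyp3a11, -128 in Cyp2j5, -126 in Cyp3a16 and -3 in window 2 of Cyp2c39. In the other genes it lay between -39 (Cyp2a12) and -19 (Cyp2c29). A match describes letters and not a bound site, and no factor was measured at these windows.

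The deposited values were scaled intensities, analysed as log2 of the intensity plus 27, a constant that keeps dim signals from dominating and understates their changes. A probe set was tested where its mean over all arrays on this scale exceeded that of an intensity of 94.2, the 40th percentile of all values, and 7357 passed. Differences were tested with limma in 1 fit over the 8 groups, with Benjamini-Hochberg adjustment over those 7357 in each comparison, and a probe set is called where the adjusted p is under 0.05. Changes are given on the log2 scale with their standard error, as named group minus CON unless another group is named, and intensities per array in the order of the replicate numbers. All 7 comparisons with CON share the same 4 CON arrays. An intensity depends on the probe set, so levels are compared between groups and not between genes, and the number of arrays sets the precision.

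The 11 of 13 hepatocyte markers that are on the array, such as albumin and transthyretin, summed to 198404 to 267322 intensity units per array, while 3 cholangiocyte, 5 kidney and 4 lung markers summed to 34.8 to 144, 147 to 329 and 174 to 574. Skeletal muscle transcripts were high on 5 arrays, CON replicate 3, CR8 replicates 1 and 2, ROS replicate 4 and SOY replicate 3, whose 16 muscle markers summed to 9760.5 to 29725, against a median of 3451 over the 32 arrays. Where the call of a P450 member was lost or gained without these 5 arrays, both results are given. Without them CR8 has replicates 3 and 4 alone, so comparisons with CR8 are then less precise. The part of muscle RNA in them was not tested. In bulk liver, fewer cells of a type and less RNA per cell cannot be told apart.

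Of the 29 member probe sets, 22 for 20 genes passed the filter on low values. The 7 that did not were both probe sets of Cyp1a1 and of Cyp1b1, the dioxin-inducible enzymes, and those of Cyp2b19, an epidermal enzyme, Cyp2j6 and Cyp2s1. Cyp1a1 had means over the 32 arrays of 72.5 and 50.7, the first being the member just below the filter, and Cyp3a16 with 121 was the member just above it. Cyp1a1 at its brighter probe set had 80.3, 115, 90.1 and 125 in LTCR and 88.4, 55.5, 126 and 149 in ROS, against 75.9, 77.6, 68.8 and 52.7 in CON. The LTCR arrays lay above the CON arrays, and those of ROS and CON overlapped, with no test made. The other untested members had means between 3.34 and 50.7.

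Over the 8 groups, the moderated F test called 11 of the 22 tested members, where it called 27% of all tested probe sets. They were Cyp2c39 (adjusted p = 1.91e-07), Cyp2c38, Cyp3a25, Cyp4v3, Cyp2c29, Cyp1a2, Cyp2j5, Cyp2b10, Cyp2f2, Cyp2e1 and 1 of 2 probe sets of Cyp2d10 (adjusted p = 0.039). Their group means did not follow a common order. LTCR was the highest group for Cyp2c39, Cyp2c38, Cyp2c29 and Cyp2d10, and the lowest for Cyp4v3, Cyp1a2 and Cyp2j5. SOY was the highest for Cyp3a25, Cyp4v3, Cyp2b10 and Cyp2f2.

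In LTCR against CON limma called 8 of 22 members, where 19.3% of all tested probe sets were called. Of these, 5 were higher, against a background of 7.53%, and 3 were lower, against 11.8%. The median change was -0.0090 over the members and 0.0044 over all tested probe sets. The LTCR and CON arrays did not overlap for 5 members, with a background of 21.2%. In MET against CON 3 members were called, with a background of 4.17%, and in CR8 against CON 1 member, with a background of 0.544%. In GM against CON 1 member was called, with 1.55% of all.

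Limma called 0 members in GLIP and in ROS against CON, where 0.136% of all were called in each. An unadjusted p under 0.05 was reached by 5 members in GLIP and 3 in ROS. The share of all tested probe sets under that unadjusted threshold was not counted. Such counts, here and below, have no background beside them. The arrays did not overlap for 4 members in GLIP against CON, with a background of 5.44%, and for 2 in ROS against CON, with 4.85%. SOY against CON had 0 calls among the members and 0% among all, with 1 member at an unadjusted p under 0.05 and 3 members whose arrays did not overlap CON, with a background of 5.36%. Its members had a median change of 0.12, where all tested probe sets had -0.030, and 18 of 22 stood above 0. The share of all above 0 was not counted, and the members share the same CON arrays. With arrays scaled to equal medians, the median change of all was 0.079. Between treatments, LTCR against CR8 gave 4 calls with a background of 12%, and GM against MET 1 call with 2.62%. GM against GLIP gave 0 calls among the members and 0% among all, with 2 members at an unadjusted p under 0.05. The map of changes by group shows these calls by gene.

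**Figure D1:**
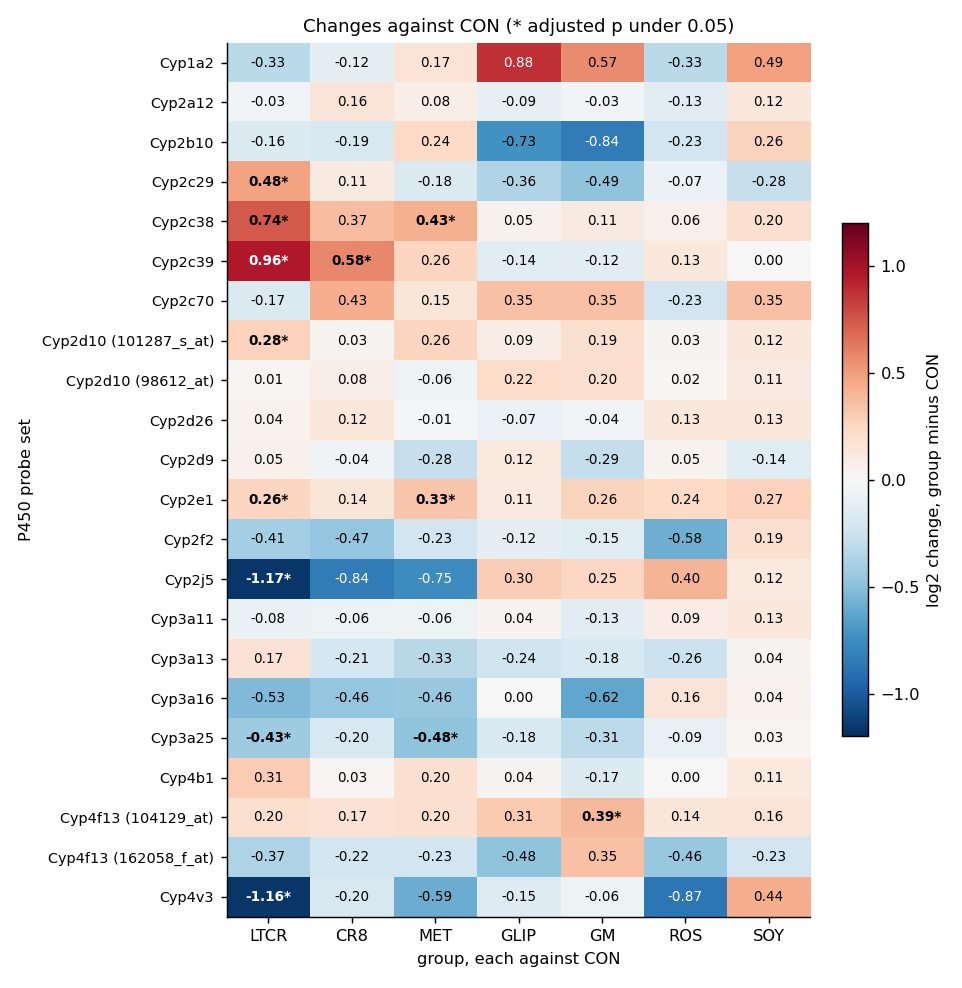
Log2 change of each tested P450 probe set (rows, by subfamily) in the 7 groups against CON (columns), with the value printed in each cell and an asterisk where the adjusted p was under 0.05. The LTCR column holds 8 of the 13 asterisks, with Cyp2c39 at 0.96 as its highest value and Cyp2j5 at -1.17 as its lowest.

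The Cyp1a subfamily makes the Ah receptor-inducible enzymes that oxidise aromatic amines and caffeine, and Cyp1a2 is its constitutive liver member. Cyp1a2 had 5795.5, 8001, 7867.5 and 6807 in GLIP and 5659, 4704, 5777 and 6732 in GM, against 3965, 4706, 2593 and 4399 in CON. The GLIP arrays lay above all CON arrays, and 1 GM array fell just within the CON range. In LTCR it had 2833, 2275, 4297 and 3077 and in ROS 3117, 2738, 3710.5 and 2699, both overlapping CON. The F test over the groups had an adjusted p of 0.00222. Against CON alone the changes were 0.88 ± 0.25 in GLIP (adjusted p = 0.206), 0.57 ± 0.25 in GM (adjusted p = 0.223) and -0.33 ± 0.25 in LTCR (adjusted p = 0.392), none of them called.

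Cyp2a12, a steroid hydroxylase, stood between -0.13 ± 0.11 in ROS and 0.16 ± 0.11 in CR8. It was called in none of the 10 comparisons nor by the F test, and the interval of its change in LTCR ran over -0.25 to 0.19.

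Cyp2b10 is the phenobarbital-inducible enzyme that serves as the standard readout of CAR. Its mean was lowest in GM and next lowest in GLIP. Its intensities were 504, 419, 291 and 417 in GM, against 1000.1, 874, 671 and 993 in MET, and the groups did not overlap. That difference, GM minus MET, was -1.07 ± 0.24 (adjusted p = 0.0132), the single call among the members in that comparison. GLIP had 487, 414.5, 482 and 363, and CON 796, 425, 1133 and 768, where replicate 2 lay among the GLIP values. Against CON the changes of -0.84 ± 0.24 in GM (adjusted p = 0.0593) and -0.73 ± 0.24 in GLIP (adjusted p = 0.27) were not called. Without CON replicate 2 the GM value was -1.09 with an adjusted p of 0.0241, and without GM replicate 3 the call against MET was lost (adjusted p = 0.0557).

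The Cyp2c enzymes oxidise arachidonic acid and many drugs. Of their 4 tested members, 3 were called higher and 0 lower in LTCR against CON, and the median change over the 4 was 0.61. Cyp2c39, which in the mouse also hydroxylates retinoic acid, had 10412, 10340.1, 8565 and 10319 in LTCR and 7583, 7082, 7795.5 and 7878 in CR8, against 5064, 4839.8, 5451 and 4914 in CON. Each LTCR array lay above each CR8 array, and each CR8 array above each CON array. Mean intensity was 9909 ± 897 in LTCR and 7585 ± 357 in CR8, against 5067 ± 272 in CON (SD, n = 4 each). Relative to CON the log2 change was 0.96 ± 0.11 in LTCR, or 1.95-fold (adjusted p = 7.58e-07), and 0.58 ± 0.11 in CR8, or 1.49-fold (adjusted p = 0.01).

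LTCR minus CR8 was 0.38 ± 0.11 for Cyp2c39 (adjusted p = 0.0256). The LTCR call against CON held under every alternative, with values from 0.87 to 1.03. The CR8 call was lost without CON replicate 2 (adjusted p = 0.0513), without CR8 replicate 4 (adjusted p = 0.0517) and without the 5 muscle-containing arrays (adjusted p = 0.0637), where the value was 0.66. The call of LTCR against CR8 was lost in 6 of 19 alternatives. These were quantile normalization, leaving out CR8 replicate 2 or LTCR replicate 1, 2 or 4, and leaving out the 5 arrays, at 0.33 (adjusted p = 0.196). MET arrays read 5119.6, 6828, 6942 and 5514, of which the lowest lay within the CON range, and the change of 0.26 ± 0.11 was not called (adjusted p = 0.216). In GLIP, GM, ROS and SOY the changes lay between -0.14 and 0.13.

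Cyp2c38, a close relative with a probe set that can take signal from similar transcripts, had 13522, 12414.5, 10795 and 11579 in LTCR, 8823, 9488, 9032.5 and 9938.5 in CR8 and 9688, 9211, 10229.8 and 9701.5 in MET. CON had 7389.8, 6244, 8504.5 and 6882. All 3 groups lay wholly above CON. The change was 0.74 ± 0.12 in LTCR (adjusted p = 0.000106), 0.43 ± 0.12 in MET (adjusted p = 0.0471) and 0.37 ± 0.12 in CR8 (adjusted p = 0.199), the last not called. LTCR minus CR8 was 0.37 ± 0.12 (adjusted p = 0.0499). The LTCR call held in each of the 18 alternatives that held this probe set, which is not of plain suffix. The MET call was lost in 11 of 18 alternatives and the call of LTCR against CR8 also in 11 of 18. Without the 5 muscle-containing arrays these 2 values were 0.51 in MET (adjusted p = 0.0665) and 0.34 for LTCR minus CR8 (adjusted p = 0.211).

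Cyp2c29, an epoxygenase inducible through CAR, had 741.5, 1366, 878 and 1197.5 in LTCR, against 741, 693, 743 and 709 in CON. LTCR replicate 1 lay within the CON range and the other 3 above it. The change was 0.48 ± 0.17 (adjusted p = 0.042), and the call was lost without LTCR replicate 2 (adjusted p = 0.183), LTCR replicate 4 or any 1 of the CON arrays. The lowest group was GM with 596.5, 484, 392 and 583, followed by GLIP with 432, 622, 519 and 687. Both lay below all CON arrays, with changes of -0.49 ± 0.17 (adjusted p = 0.122) and -0.36 ± 0.17 (adjusted p = 0.489) that were not called.

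Cyp2c70, which makes the muricholic acids of mouse bile, had 2504, 2093.5, 2611 and 2493 in LTCR, against 2908, 1744, 4168 and 2623 in CON, and the groups overlapped. Its change in LTCR was -0.17 ± 0.31, with an interval of -0.80 to 0.45 that holds both rises and falls, and it was called in none of the 10 comparisons. In CR8 it had 3005, 4548, 4277 and 3200.5, above every LTCR array. The change in CR8 against CON was 0.43 ± 0.31 (adjusted p = 0.649), and LTCR minus CR8 was -0.61 ± 0.31 (adjusted p = 0.203).

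**Figure D2:**
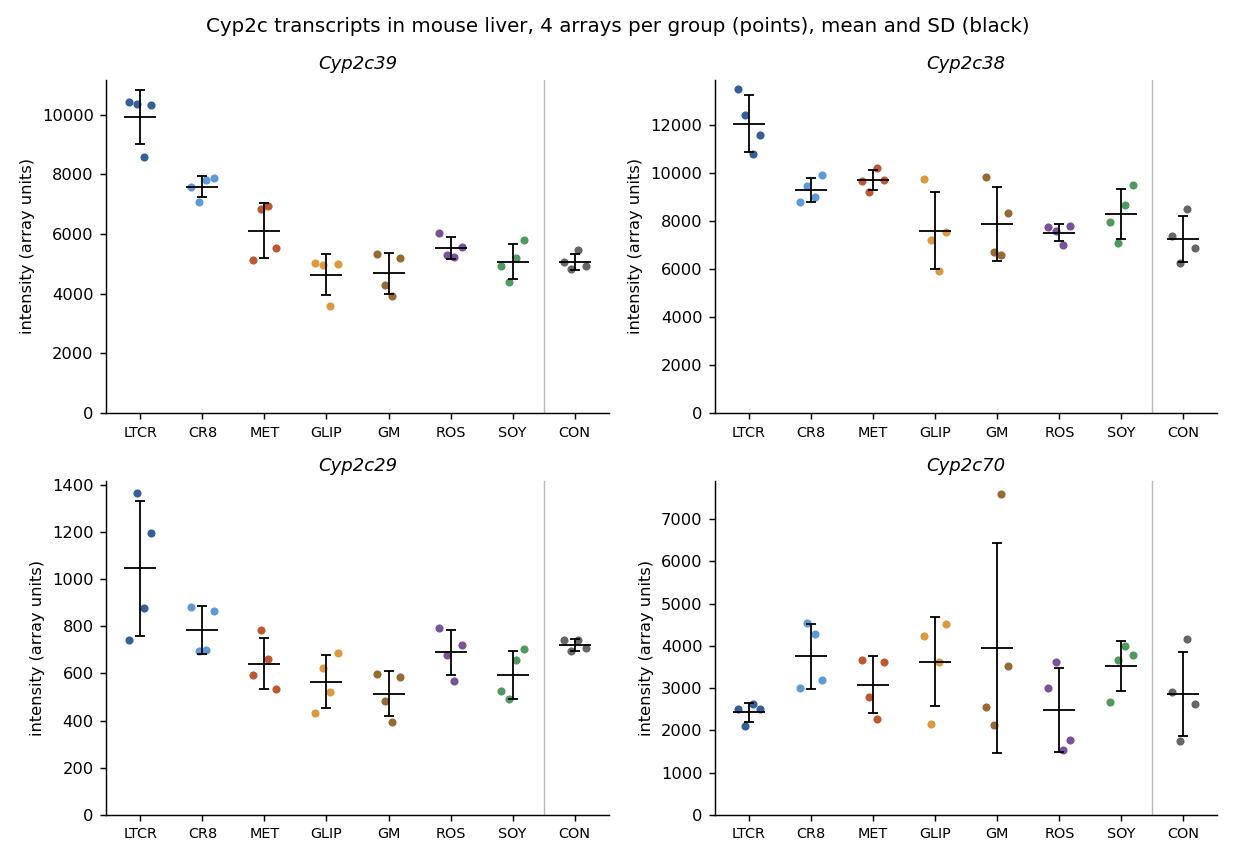
Intensity of 4 Cyp2c probe sets on each of the 32 arrays (points), with group mean and SD in black, by group, CON at the right. Cyp2c39 steps down from LTCR through CR8 to the other groups, whereas for Cyp2c70 each group overlaps CON and LTCR lies below CR8.

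The Cyp2d genes make drug and steroid hydroxylases. Of their 4 tested probe sets, 1 was called higher and 0 lower in LTCR against CON. Cyp2d10 at its probe set with the suffix _s_at, which can take signal from other Cyp2d transcripts, had 28591, 24707, 24895 and 27077 in LTCR, against 20129, 24907, 20068 and 21714 in CON. The groups overlapped through CON replicate 2. The change was 0.28 ± 0.083 in LTCR (adjusted p = 0.0155) and 0.26 ± 0.083 in MET (adjusted p = 0.0693), the second not called. LTCR minus CR8 was 0.25 ± 0.083 (adjusted p = 0.0462).

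The other Cyp2d10 probe set, of plain suffix, did not give the same result, with 9277, 7954, 9554 and 8548 in LTCR, against 7893, 9094, 9287 and 8789.9 in CON and a change of 0.01 ± 0.087 (adjusted p = 0.959). Cyp2d9, a male-predominant testosterone hydroxylase, had 1164, 768, 1248 and 1102 in LTCR, against 1142, 794, 1066 and 1096 in CON, with overlap. It had changes between -0.29 ± 0.22 in GM and 0.12 ± 0.22 in GLIP. Cyp2d26 lay between -0.069 in GLIP and 0.13 in SOY. Neither was called in any comparison. Under quantile normalization the change at the _s_at probe set in LTCR was 0.069 (adjusted p = 0.484), and the call was also lost without LTCR replicate 1, without CON replicate 1 or 3, and without the 5 muscle-containing arrays. The call of LTCR against CR8 was lost in 12 of 18 alternatives, among them the one without those arrays (adjusted p = 0.147).

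Cyp2e1, which oxidises ethanol, acetone and acetaminophen, was called higher in MET and in LTCR. It had 34565, 36303, 34640.4 and 37485 in MET and 36707, 32826, 30349 and 35966 in LTCR, against 26819, 29071, 31543 and 26168 in CON. MET lay above every CON array, and LTCR overlapped CON through its replicate 3. The change was 0.33 ± 0.08 in MET (adjusted p = 0.0174) and 0.26 ± 0.08 in LTCR (adjusted p = 0.0217). SOY had 34313.5, 34522, 33033 and 35261, also above every CON array, with a change of 0.27 ± 0.08 that was not called (adjusted p = 0.391).

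CON was the lowest of the 8 groups for Cyp2e1, and the other groups had changes between 0.11 in GLIP and 0.26 in GM. Quantile normalization removed the calls, with 0.079 in MET (adjusted p = 0.52) and 0.043 in LTCR (adjusted p = 0.649). Leaving out CON replicate 1 or 4 also ended both calls, and leaving out LTCR replicate 1 or 4 that of LTCR. The 11 hepatocyte markers summed to 238029 to 249631 in MET and 233148 to 267322 in LTCR, against 198404 to 222996 in CON, without overlap. The sums of GM, 227519 to 265924, and SOY, 237187.5 to 245989.6, also lay above CON. Cyp2e1 changed there by 0.26 in GM (adjusted p = 0.0804) and 0.27 in SOY (adjusted p = 0.391). Neither was called, although the called change in LTCR was of like size at 0.26. ROS, with sums of 206234 to 246937 that overlapped CON, had 0.24. Single markers went both ways, with 1 called higher and 2 lower in MET, 5 higher and 2 lower in LTCR, 1 higher and 0 lower in GM, and 0 in SOY. Their part in the result was not tested.

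Cyp2f2, the enzyme that activates naphthalene, differed among the groups (F test adjusted p = 0.0057) with SOY at the top and ROS at the bottom. It had 8361, 8495, 8616 and 8296 in SOY and 4894, 3475, 5559.6 and 6277 in ROS, against 7756, 8150.0, 6854 and 6927 in CON. The SOY arrays lay above and the ROS arrays below all CON arrays. LTCR, with 5774, 5466, 5191 and 5819, also lay below. No single comparison with CON was called, the changes being -0.58 ± 0.16 in ROS (adjusted p = 0.172), -0.47 ± 0.16 in CR8 (adjusted p = 0.199), -0.41 ± 0.16 in LTCR (adjusted p = 0.0669) and 0.19 ± 0.16 in SOY (adjusted p = 0.798).

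Without the 5 muscle-containing arrays, Cyp2f2 was called lower in all 3 of those groups, with -0.73 in ROS (adjusted p = 0.0407), -0.87 in CR8 (adjusted p = 0.0141), where 2 CR8 arrays remain, and -0.45 in LTCR (adjusted p = 0.0255). The 2 CR8 arrays left were replicates 3 and 4, with 3328 and 5174, the lowest of that group.

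Cyp2j5, an arachidonic acid epoxygenase, was dim on these arrays. It had 23.1, 54.8, 142.5 and 31.2 in LTCR, 101, 133, 9.7 and 107 in CR8 and 140.1, 107, 35.8 and 63.8 in MET, against 188, 143, 119 and 167 in CON. In each of these groups 3 arrays lay below all CON arrays and 1 lay within their range. The change was -1.17 ± 0.35 in LTCR (adjusted p = 0.0183), -0.84 ± 0.35 in CR8 (adjusted p = 0.323) and -0.75 ± 0.35 in MET (adjusted p = 0.252), of which LTCR alone was called. The call was lost without CON replicate 1, LTCR replicate 1 or LTCR replicate 4 (adjusted p up to 0.087). LTCR replicates 1 and 4 stood near or below the constant of 27 added before taking logs, and the size of the change depended on that constant: it was -1.62 with 1 added and -0.71 with 94.2 added, both called.

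**Figure D3:**
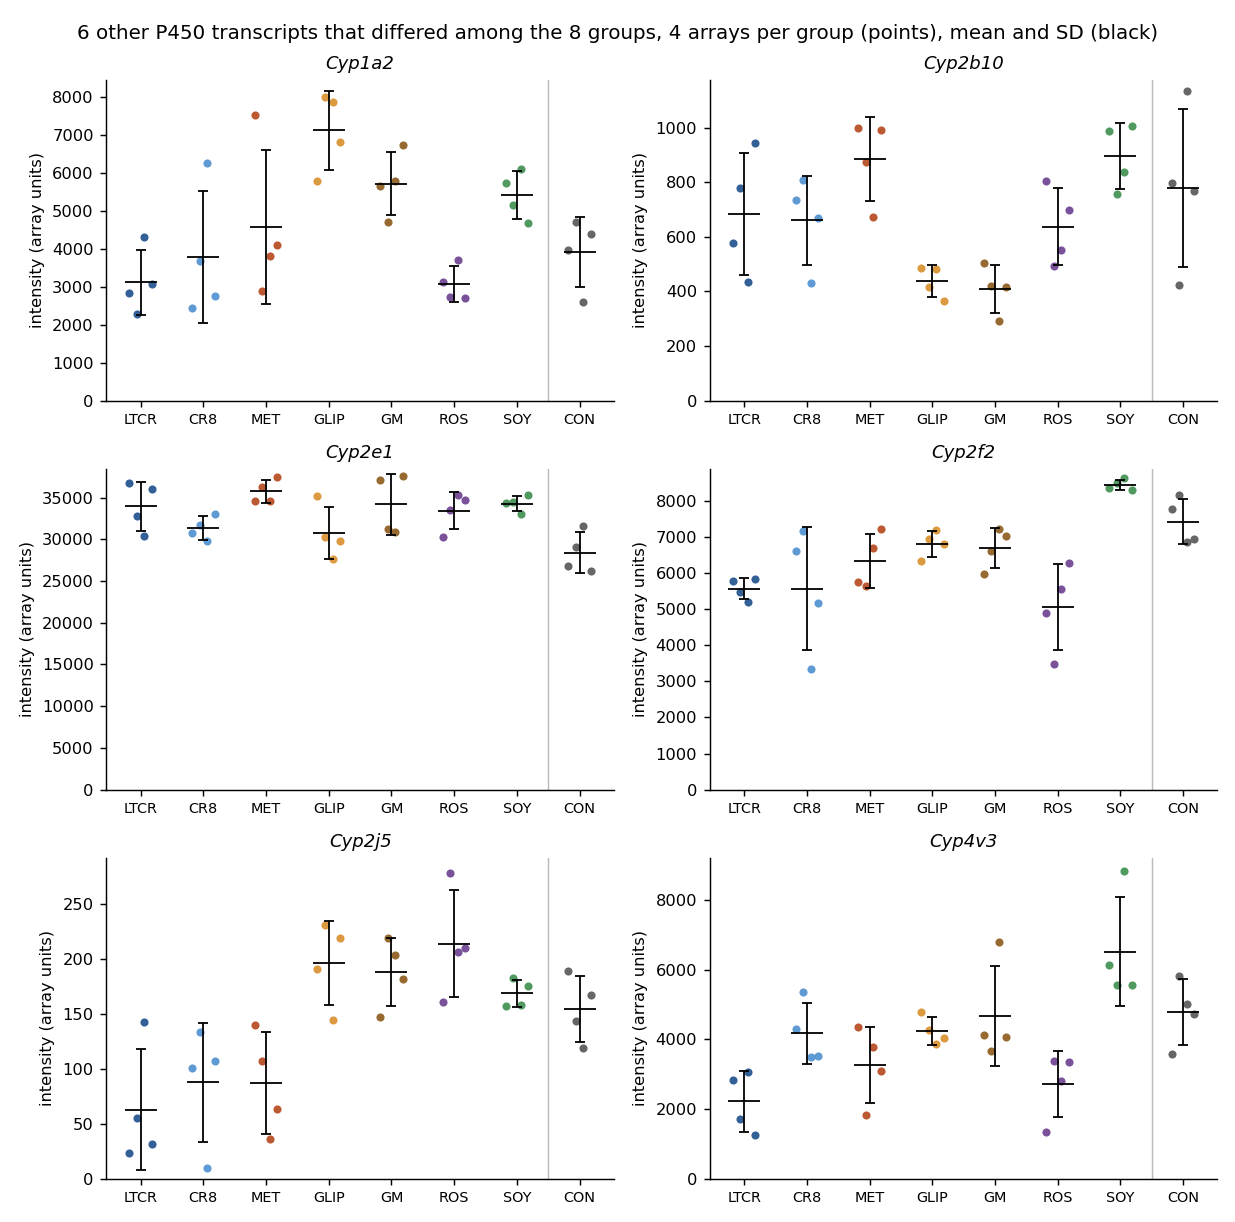
Intensity of Cyp1a2, Cyp2b10, Cyp2e1, Cyp2f2, Cyp2j5 and Cyp4v3 on each of the 32 arrays (points), with group mean and SD in black, by group, CON at the right. Cyp1a2 is highest in GLIP, Cyp2b10 is lowest in GM and GLIP, and Cyp4v3 is lowest in LTCR and highest in SOY.

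The Cyp3a enzymes clear many drugs and steroids, and several are induced through PXR. Of their 4 tested members, 1 was called lower and 0 higher in LTCR against CON, with a median change of -0.25 over the 4, and 1 was called lower and 0 higher in MET, with a median of -0.40. In both it was Cyp3a25, with 7647, 7011.5, 8430.4 and 8189 in LTCR and 7434, 7078, 7305 and 8208 in MET, against 11209, 8684, 11943 and 10428 in CON. Both groups lay below all CON arrays. Mean intensity was 7819 ± 631 in LTCR and 7506 ± 491 in MET, against 10566 ± 1399 in CON (SD, n = 4 each). The change was -0.43 ± 0.10 in LTCR (adjusted p = 0.00212) and -0.48 ± 0.10 in MET (adjusted p = 0.00601). The LTCR call held in every alternative, from -0.55 to -0.36, and the MET call in every alternative other than a fit to the MET and CON arrays alone (adjusted p = 0.0654).

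In GM the Cyp3a25 arrays read 8889, 8352, 7103 and 9699 and overlapped CON through CON replicate 2. The change of -0.31 ± 0.10 was not called (adjusted p = 0.0877), was called without CON replicate 2 (adjusted p = 0.0366) and was -0.41 under quantile normalization (adjusted p = 0.0397). CR8 read 9386, 9284, 8635 and 9350.4, above every LTCR array, and LTCR minus CR8 was -0.23 ± 0.10 (adjusted p = 0.121). GM minus MET was 0.17 ± 0.10 (adjusted p = 0.357).

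Cyp3a11, the main PXR-inducible Cyp3a enzyme of mouse liver and the chromosomal neighbour of Cyp3a25, had 17574, 19143, 18447 and 18775 in LTCR, against 19468, 17095, 22613 and 19315 in CON. The groups overlapped. Its changes against CON lay between -0.13 ± 0.094 in GM and 0.13 ± 0.094 in SOY, none called, and the interval in LTCR ran over -0.27 to 0.11. Under quantile normalization the LTCR change was -0.27, which was called (adjusted p = 0.0374). Cyp3a13 had 0.17 ± 0.22 in LTCR and -0.33 ± 0.22 in MET. Cyp3a16, known from fetal liver and dim here, had -0.53 ± 0.30 in LTCR and -0.62 ± 0.30 in GM, with CON arrays from 65.8 to 193. None of these was called. The difference between the Cyp3a25 and Cyp3a11 changes was not tested.

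**Figure D4:**
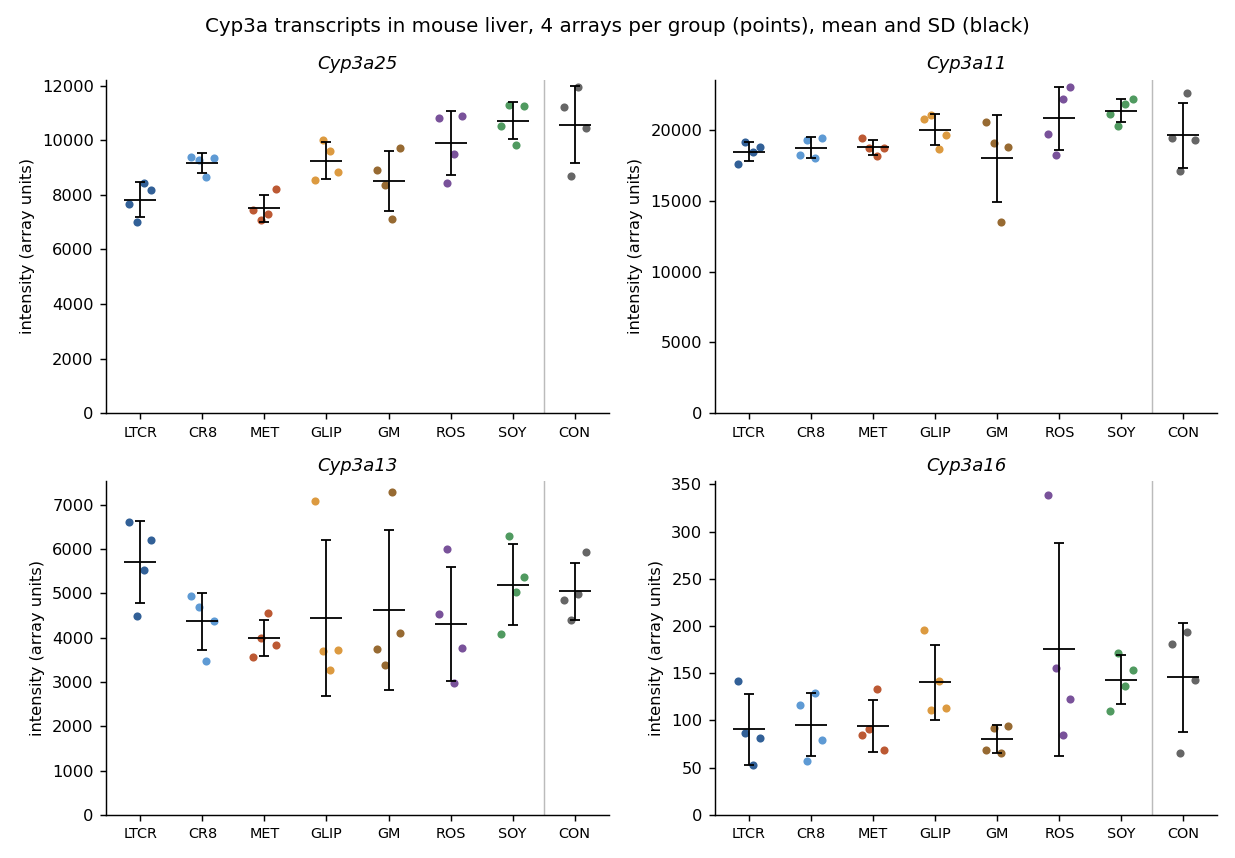
Intensity of 4 Cyp3a probe sets on each of the 32 arrays (points), with group mean and SD in black, by group, CON at the right. Cyp3a25 is lower in LTCR and MET than in CON without overlap, while LTCR and MET overlap CON for Cyp3a11, Cyp3a13 and Cyp3a16.

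The Cyp4 members outside Cyp4a hydroxylate fatty acids and related lipids at or near the end of the chain. Cyp4v3, the mouse counterpart of a human enzyme of ocular lipid metabolism, had 2842, 1725, 3065 and 1261 in LTCR and 4300.1, 5375, 3504 and 3535 in CR8, against 3574, 5836, 5015 and 4726 in CON. LTCR lay below both other groups without overlap, and CR8 overlapped CON. The change was -1.16 ± 0.28 in LTCR (adjusted p = 0.00353), or 0.446-fold, and -0.20 ± 0.28 in CR8 (adjusted p = 0.861). LTCR minus CR8 was -0.97 ± 0.28 (adjusted p = 0.0232), and this call was lost without LTCR replicate 2 or 4 or CR8 replicate 2 and without the 5 muscle-containing arrays (adjusted p = 0.215). The call against CON held in every alternative, from -1.35 to -0.93.

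ROS and SOY stood at opposite sides of CON for Cyp4v3. ROS had 1355, 3387, 2809.7 and 3351, all below CON, and SOY 6142, 5553, 8832 and 5576, of which 2 arrays exceeded every CON array. Neither change was called, at -0.87 ± 0.28 in ROS (adjusted p = 0.281) and 0.44 ± 0.28 in SOY (adjusted p = 0.719). The F test over all groups had an adjusted p of 0.00152.

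Cyp4f13, a fatty acid hydroxylase, was called higher in GM at its probe set of plain suffix. It had 614, 713, 658 and 764 in GM and 666.5, 622, 688 and 631 in GLIP, against 471, 531, 548 and 527 in CON. Both groups lay above all CON arrays. The change was 0.39 ± 0.10 in GM (adjusted p = 0.0481) and 0.31 ± 0.10 in GLIP (adjusted p = 0.27), the second not called. The GM call was lost when any 1 of the 8 arrays was left out and without the 5 muscle-containing arrays (adjusted p = 0.0873). Its _f_at probe set had 0.35 ± 0.39 in GM and -0.48 ± 0.39 in GLIP, neither called. Cyp4b1 had 0.31 ± 0.15 in LTCR (adjusted p = 0.146) and was called in no comparison.

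**Figure D5:**
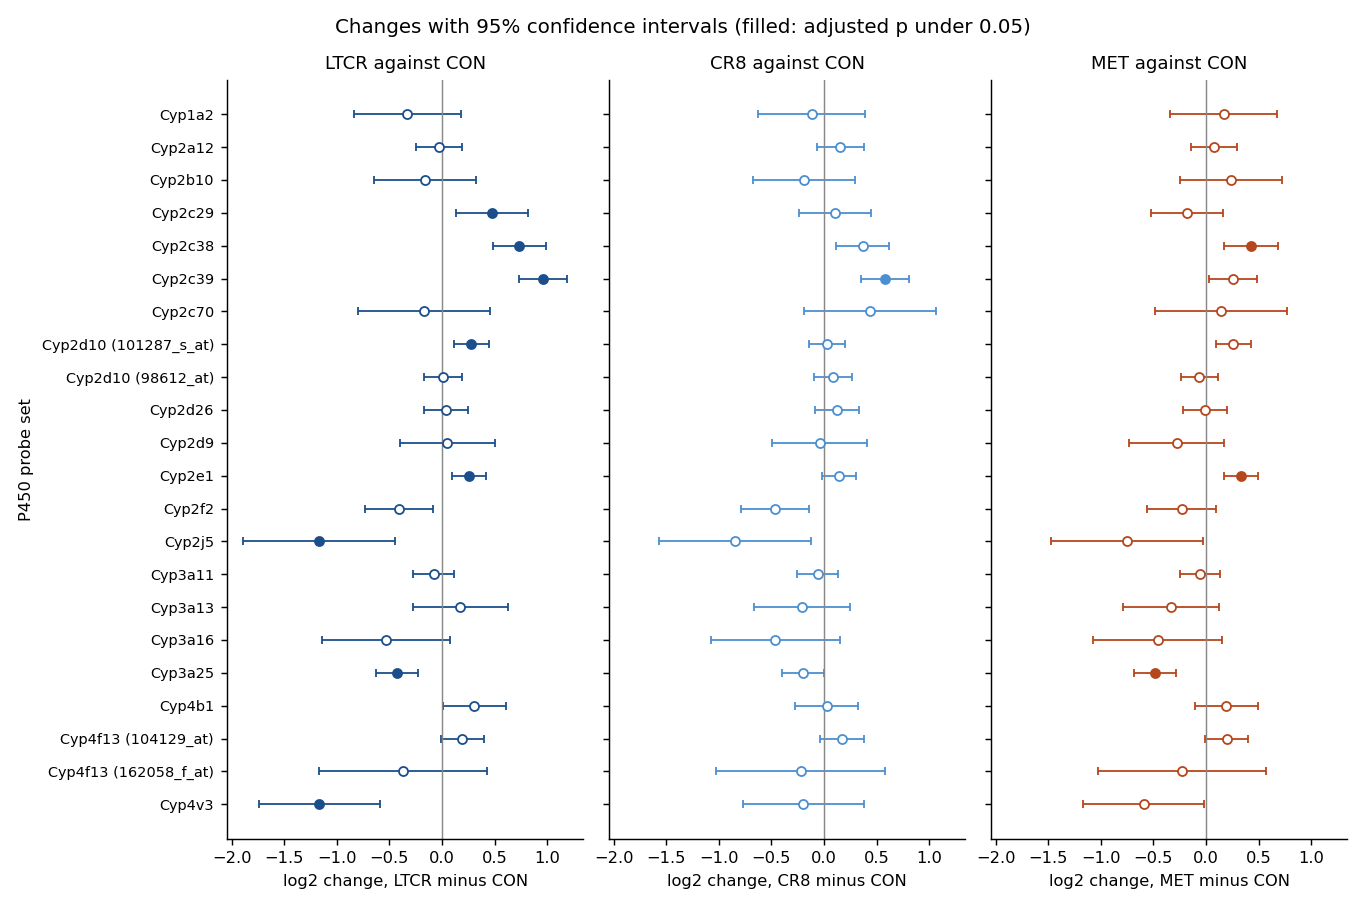
Log2 change against CON with its 95% confidence interval for each tested P450 probe set in LTCR, CR8 and MET. Filled points have an adjusted p under 0.05, which 8 reach in LTCR, 1 in CR8 and 3 in MET.

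Without the 5 muscle-containing arrays, 7 of 22 members were called in LTCR against CON, where 15.1% of all tested probe sets were called in the same fit. Cyp2c29 (adjusted p = 0.0912) and Cyp2d10 (adjusted p = 0.0903) lost their calls there and Cyp2f2 gained a call. Without the same arrays, limma called 0 members in LTCR against CR8, where 2 CR8 arrays remain and 5.75% of all were called. It called 0 in GM against CON, where 0.449% of all were called. An unadjusted p under 0.05 was reached by 5 and 6 members, with no background counted at that threshold. CR8 against CON had 1 call, which was then Cyp2f2 in place of Cyp2c39, with 0.394% of all. ROS against CON also had 1, with 0.0951% of all, and MET against CON had 2, with 1.29% of all. The count in LTCR against CON was 4 without CON replicate 1 and 5 without LTCR replicate 1 or 4. Under quantile normalization that count was again 8, but as 3 higher and 5 lower.

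Markers of other liver cells were read on the same arrays. The 11 markers of Kupffer cells and macrophages summed to 2664.5 to 4095.5 in LTCR and 2729 to 4305 in CR8, against 4436 to 5472 in CON, without overlap with CON and with Marco below 27 on every array. Of the 9 tested, 0 were called higher and 1 lower in LTCR, Mpeg1, and 0 in CR8. The 7 endothelial markers summed to 2333 to 2919.8 in LTCR, against 1783 to 2509 in CON, with overlap, and 1 of 7 was called higher in LTCR, Tie1. Over all tested probe sets, 7.53% were called higher and 11.8% lower in LTCR against CON. The part of these cells in the P450 changes was not tested.

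The enzymes' electron donors and regulators were read beside them. Of 6 tested electron donor genes, 0 were called higher and 2 lower in LTCR against CON, where 7.53% of all tested probe sets were called higher and 11.8% lower. Pgrmc1, a heme-binding partner of P450s, had 8997 ± 742 in LTCR, against 11042 ± 739 in CON (SD, n = 4 each), a change of -0.30 ± 0.066 (adjusted p = 0.00191). Pgrmc2 changed by -0.29 ± 0.10 (adjusted p = 0.0483), a call that was not followed through the alternatives. In MET 1 was higher and 1 lower, Cyb5r3, the cytochrome b5 reductase, at 0.54 ± 0.11 (adjusted p = 0.00657) and Pgrmc1 at -0.34 ± 0.066 (adjusted p = 0.00553). Over all tested probe sets, 4.17% were called in MET against CON. GM minus MET was -0.77 ± 0.11 for Cyb5r3 (adjusted p = 0.000314). In fits to the 2 groups alone, the MET calls of Cyb5r3 (adjusted p = 0.0949) and Pgrmc1 (adjusted p = 0.0833) and the GM against MET call of Cyb5r3 (adjusted p = 0.089) were lost. Por was not analysed here.

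Of 10 tested genes of heme synthesis and breakdown, 1 was called higher and 0 lower in LTCR against CON, where 7.53% of all tested probe sets were called higher and 11.8% lower. The median change was 0.11. The gene called was Urod, uroporphyrinogen decarboxylase, at 0.29 ± 0.10 (adjusted p = 0.0435), a call that was lost without the 5 muscle-containing arrays (adjusted p = 0.137) and without any of 6 single arrays. Alas1, the rate-limiting enzyme of heme synthesis, had 0.42 ± 0.28 in LTCR (adjusted p = 0.317) and was called in no comparison.

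Of 30 tested receptors and transcription factors, 3 were called higher and 5 lower in LTCR against CON, with a median change of 0.073. The shares over all tested probe sets in that comparison were 7.53% higher and 11.8% lower. Hnf4a, a nuclear receptor that sustains many liver P450 genes, averaged 3506 ± 441 in LTCR, against 1812 ± 539 in CON (SD, n = 4 each). It rose by 0.98 ± 0.18 (adjusted p = 0.000271), and LTCR minus CR8 was 1.11 ± 0.18 (adjusted p = 0.000159). Rxra, the partner of PXR and CAR, rose by 0.39 ± 0.10 in LTCR (adjusted p = 0.0085) and by 0.41 ± 0.10 in MET (adjusted p = 0.0256). Both Rxra calls were lost without CON replicate 3, which is 1 of the muscle-containing arrays (adjusted p = 0.0582 in LTCR and 0.108 in MET). Without all 5 of those arrays they were 0.28 in LTCR (adjusted p = 0.0501) and 0.30 in MET (adjusted p = 0.107).

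Cebpa, a factor of the differentiated hepatocyte, rose by 0.39 ± 0.10 in LTCR (adjusted p = 0.00596) and by 0.47 ± 0.10 in MET (adjusted p = 0.00781). The LTCR call of Cebpa was lost under quantile normalization (adjusted p = 0.0649) and the MET call in a fit to the 2 groups alone (adjusted p = 0.0654). The Ah receptor gene, Ahr, averaged 266 ± 25 in LTCR, against 548 ± 78 in CR8 and 412 ± 50.9 in CON. Its change was -0.58 ± 0.15 against CON (adjusted p = 0.00748) and -0.97 ± 0.15 against CR8 (adjusted p = 0.000127), and both calls held in every alternative. Dbp, a clock-controlled activator of P450 genes, changed by -1.17 ± 0.12 in LTCR (adjusted p = 5.4e-08). Neither Nr1i2, which encodes PXR, at 0.41 ± 0.17 in LTCR (adjusted p = 0.0852), nor Nr1i3, which encodes CAR, at 0.29 ± 0.17 (adjusted p = 0.259), was called in any of the 10 comparisons.

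Of 11 tested genes outside the P450 families that respond to CAR or PXR, 0 were called higher and 2 lower in LTCR against CON, where 7.53% of all tested probe sets were called higher and 11.8% lower. The 2 were Aldh1a7 at -1.37 ± 0.19 (adjusted p = 1.01e-05) and Aldh1a1 at -0.20 ± 0.068 (adjusted p = 0.0383), both cytosolic aldehyde dehydrogenases. The Aldh1a1 call was not followed through the alternatives. In GM against MET, where 2.62% of all tested probe sets were called, 1 was lower. It was the drug transporter gene Abcb1a, at -0.999 ± 0.27 (adjusted p = 0.039), a call lost in 12 of 18 alternatives, among them the one without the 5 muscle-containing arrays (adjusted p = 0.051). The 2 tested genes that respond to the Ah receptor were called in none of the 10 comparisons. Of 9 tested periportal genes 5 were higher and 0 lower in LTCR against CON, and of 10 tested pericentral genes 2 were higher and 1 lower, where 7.53% of all tested probe sets were called higher and 11.8% lower.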

How the data were processed

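Liver total RNA of 32 mice was hybridised to 1 MG-U74Av2 array each, with 4 arrays in each of 8 groups taken from the sample titles. The deposited values are 1 intensity per probe set and array on a linear scale, from 0.1 to 47323.7. The authors' table has equal mean intensities of about 500.4 to 500.5 on all arrays once 2% of values is trimmed from each side, and array medians of 144.9 to 170.3. The software, the background correction, detection calls and scan dates are not given in the sources used here. The labels name separate mice.

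Intensities were analysed as log2(intensity + 27), 27 being the 20th percentile. Control probe sets (66 of 12488) were left out, and 7357 probe sets passed the filter on low values. One limma 3.58.1 fit (R 4.3.3) with a trended prior had 24 residual and 4.59 prior degrees of freedom. It gave 10 comparisons and a moderated F test over the 8 groups, each with Benjamini-Hochberg adjustment over the tested probe sets at 0.05. The number of arrays limits the precision.

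Gene symbols come from the platform annotation, in which 10833 probe sets carry 1 symbol, 396 several and 1193 none. Symbols were checked by gene ID against RefSeq, where 16 had no match and 0 changed. A probe set with several symbols was not named. Members and lists of pathway genes and markers were chosen with earlier results of these data known. The genes named are those called in a comparison, a short set given whatever their values (Cyp2e1, Cyp1a2, Cyp3a11, Cyp2d9, Cyp2c29, Cyp2f2, Alas1, Nr1i2, Nr1i3 and Ahr), and members described for completeness. Promoter windows are RefSeq's for GRCm38.p6, aligned with Biopython 1.88 (Python 3.11.15).

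The fit was tested on simulated data. Alternatives were 2 other normalizations, 2 other added constants, 2 other filters, fits to 2 groups, a block for the replicate number, a single probe set for each gene, identifiers of plain suffix, and leaving out single arrays or the 5 arrays with muscle transcripts.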

Additional observations from a re-analysis of the deposited data

Results flagged for a closer look

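Among 176 groups of 4 arrays (22 tested members in 8 groups), 8 held an array set apart from the other 3 by Dixon's 95% criterion of 0.829. Chance gives about 1 in 20, so this number is near what chance gives. For Cyp2c39, LTCR replicate 3 stood low at 8565.4, where the nearest LTCR array had 10318.7, and GLIP replicate 3 stood low at 3599, where the nearest had 4949.3. For Cyp2d10 (the _s_at probe set), MET replicate 3 stood high at 29136.9. For Cyp3a13, GLIP replicate 1 stood high at 7074.2, where the nearest GLIP array had 3716.5. For Cyp3a25, CR8 replicate 3 stood low at 8634.7. For Cyp4f13, CR8 replicate 3 stood high at 655.9 at the probe set of plain suffix, and ROS replicate 1 stood high at 233 at the _f_at probe set. For Cyp4v3, GM replicate 3 stood high at 6813.1, where the nearest GM array had 4126.4. None of these arrays is among the 5 with high muscle transcripts.

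The difference between 2 treatments passed the test in 5 cases. The comparison of GM with MET gave Cyp2b10 at -1.07, and that of LTCR with CR8 gave Cyp2c39 at 0.38, Cyp2c38 at 0.37, Cyp2d10 (the _s_at probe set) at 0.25 and Cyp4v3 at -0.97, all on the log2 scale. Each of these calls was lost in some alternative.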

How the results depend on the processing

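Of the 18 called member results, 4 kept their call in every alternative that held their probe set, Cyp2c39, Cyp2c38, Cyp3a25 and Cyp4v3 in LTCR against CON. The Cyp2c38 probe set is not of plain suffix and was absent from the fit to plain identifiers. The other 14 lost it in at least 1, and 0 changed sign. The Cyp2d10 probe set of plain suffix in LTCR against CON, not called, changed sign, to -0.12 under quantile normalization and over a range of -0.039 to 0.059 when single arrays were left out. Leaving out single arrays, the number of members called was 4 to 8 in LTCR against CON, 0 to 1 in CR8, 1 to 3 in MET, 0 to 2 in GM, 0 to 0 in GLIP, ROS, SOY and GM against GLIP, 0 to 4 in LTCR against CR8, 0 to 2 in GM against MET and 9 to 12 for the F test. In CR8 the 0 came without CON replicate 2 or CR8 replicate 4, in MET the 1 without CON replicate 1 or 4, and in LTCR against CR8 the 0 without CR8 replicate 2 or LTCR replicate 4. In GM the 2 came without CON replicate 2, and the 0 without any other CON or GM array. In GM against MET the 0 came without GM replicate 3 and the 2 without GM replicate 1 or MET replicate 1.

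Quantile normalization gave 1 call in MET (0 higher, 1 lower), 2 in GM (1 higher, 1 lower) and 2 in LTCR against CR8 (0 higher, 2 lower). Equal medians, which moved the median change of all probe sets from -0.048 to 0.087 in GM, from -0.030 to 0.079 in SOY and from -0.039 to 0.079 in GM against GLIP, gave 4 in GM (4 higher), 3 higher and 1 lower in MET, and 2 in LTCR against CR8 (1 higher, 1 lower). Without a filter there were 0 in GM and 2 in LTCR against CR8, and with a filter at the 60th percentile 2 in GM. Plain identifiers left 2 in LTCR against CR8, since the called probe sets of Cyp2c38 and Cyp2d10 are not of plain suffix and were absent. Fits to the 2 groups alone gave 0 in MET, 0 in GM and 0 in GM against MET. Without the 5 muscle-containing arrays there were 0 in GM, 1 in ROS and 0 in LTCR against CR8. With the replicate number as a block there were 0 in GM, where Cyp4f13 had an adjusted p of 0.0584, and 10 members by the F test. Deviations of arrays with the same number had correlations of -0.17 to 0.17. Such values cannot show whether the numbers stand for a shared step of handling, and the main fit used no pairing. Apart from the probe sets absent under plain identifiers, the causes of these shifts were not tested. Members near the filter, Cyp2j5 and Cyp3a16, are limited by low signal.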

Other observations

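Other P450 genes on the array, outside the families described or set apart by the rule, were tested in the same fit with 13 probe sets. Cyp4a12b, a male-predominant fatty acid hydroxylase, averaged 1831 ± 594 in LTCR, against 7007 ± 1097 in CON (SD, n = 4 each), a log2 change of -1.96 ± 0.30 (limma, adjusted p = 3.13e-05). It was also lower in CR8 at -1.41 ± 0.30, MET at -1.50 ± 0.30 and ROS at -1.50 ± 0.30 (adjusted p = 0.0183, 0.00601 and 0.0253). Cyp26a1, which clears retinoic acid, averaged 123 ± 29.1 in LTCR, against 838 ± 588 in CR8 and 443 ± 155 in CON, with changes of -2.34 ± 0.33 (adjusted p = 3.33e-05) and -1.60 ± 0.33 (adjusted p = 0.000757).

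Cyp17a1, of steroid synthesis, was higher in LTCR at 1.03 ± 0.27 (adjusted p = 0.00793) and in MET at 1.00 ± 0.27 (adjusted p = 0.0367), the MET call being lost in 7 of 19 alternatives, among them the one without the 5 muscle-containing arrays (adjusted p = 0.119). Cyp2b13, of the same subfamily as Cyp2b10, had a GM minus MET change of -2.98 ± 0.60 (adjusted p = 0.0066). That call was lost in a fit to the 2 groups alone (adjusted p = 0.0887). Cyp2b13 was higher in MET than in CON by 2.04 ± 0.60 (adjusted p = 0.0486). The MET call was lost in 11 of 19 alternatives, also without the 5 muscle-containing arrays (adjusted p = 0.0647). Among the periportal genes called higher in LTCR against CON were G6pc at 1.41 ± 0.26 and Pck1 at 0.71 ± 0.14, of glucose synthesis, and Cps1 at 0.33 ± 0.085 and Asl at 0.45 ± 0.12, of the urea cycle. The pericentral genes called higher in LTCR were Tbx3 at 0.87 ± 0.17 and Oat at 0.72 ± 0.24. Tbx3 was not particular to LTCR, as it was also called higher in CR8, GLIP and GM against the same CON arrays.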
